A study of Mus musculus with 6 samples.

Results

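The genes described here are the cytosolic ribosomal protein genes of the mouse and their separately named copies, taken by symbol. A gene was included when its symbol began with Rpl, Rps or Rplp followed by a digit. Symbols with -ps (used for processed pseudogenes), the S6 kinases (Rps6k) and Rps19bp1 were left out. Pseudogenes with other symbols stayed in. This gave 90 of the 46078 genes counted. They were divided into 76 core genes (30 of the small subunit, 43 of the large subunit and 3 of the stalk), 5 paralogues named for comparison (Rps4l, Rpl3l, Rpl22l1, Rpl39l and Rps27l) and 9 other copies. RNA was sequenced from small intestinal epithelium of untreated C57BL/6JRj mice, sorted for the epithelial marker EpCam and against the leukocyte marker CD45. The young group holds 3 libraries from mice of 2 to 3 months and the aged group 3 libraries from mice of 20 to 22 months. The design text of the series names 3 mice per age, and each library was therefore treated as 1 mouse. No transgene or other manipulation is recorded for either age, and the labels give neither sex nor batch. The question addressed was whether the abundance of ribosomal protein mRNAs, and the balance between a core gene and its paralogue, differed with age.

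The ribosome is the particle that translates mRNA into protein. Its small subunit decodes the mRNA and its large subunit joins the amino acids, while the stalk of P proteins on the large subunit recruits translation factors. Ribosomal protein mRNAs carry a terminal oligopyrimidine tract at their start, through which mTOR signalling controls their translation, and most of these genes have many processed pseudogenes (reverse-transcribed, intronless copies) in mammalian genomes. A few copies are expressed genes that make a paralogue of the core protein, often in particular tissues: Rpl39l and Rpl10l are known from the male germ line and Rpl3l from heart and skeletal muscle. The intestinal epithelium renews itself continuously from crypt stem cells and has a high demand for protein synthesis.

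The main finding concerned Rps4l, an intronless copy of the X-linked gene Rps4x, which encodes the small subunit protein eS4. The first 180 coding bases of both genes are printed to show how far apart they are, since this decides whether reads can be assigned to one of them. They were read from the GENCODE M21 transcripts (GRCm38), and capitals mark the 38 bases at which they differ.
Rps4x: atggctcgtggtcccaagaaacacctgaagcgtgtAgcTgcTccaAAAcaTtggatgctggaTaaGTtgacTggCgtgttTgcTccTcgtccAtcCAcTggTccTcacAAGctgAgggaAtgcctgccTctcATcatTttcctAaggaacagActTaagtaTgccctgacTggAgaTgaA
Rps4l: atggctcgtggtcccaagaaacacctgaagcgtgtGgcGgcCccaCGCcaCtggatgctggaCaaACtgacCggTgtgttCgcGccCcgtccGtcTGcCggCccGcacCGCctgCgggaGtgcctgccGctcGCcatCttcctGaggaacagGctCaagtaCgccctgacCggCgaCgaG
Over the 792 coding bases of Rps4x, Rps4l had the same base at 632 (79.8%), a different base at 157 and lacked 3. Of the differences, 127 lay at the third base of a codon, 23 at the first and 7 at the second. The longest stretch shared without a difference was 35 bases. The aligned stretch of Rps4l ran over 263 codons from ATG to TGA with 0 stop codons in frame before its end. GENCODE M21 nevertheless lists Rps4l (ENSMUSG00000063171) as a transcribed processed pseudogene. It is a single exon on the plus strand of chromosome 6, from 148354656 to 148355598, within the span of the minus-strand gene Tmtc1. Of the 50-base stretches of Rps4l, 85.1% occurred in no other annotated gene, and the rest were shared with 1 gene, Rps4l-ps, which had no counts in any library.

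Rps4l was far lower in aged than in young epithelium. Its reads numbered 3483, 4260 and 2972 in the young libraries and 240, 238 and 261 in the aged ones. As CPM, the reads of a gene scaled to a common library size with TMM factors, these were 79.2, 72.0 and 71.3 in the young libraries, against 5.07, 5.22 and 4.65 in the aged ones. The lowest young library was thus more than 10 times as high as the highest aged one, and the 3 libraries within each age lay close together. The mean fell from 74.2 ± 4.37 CPM (SD, n = 3) to 4.98 ± 0.294 CPM (SD, n = 3). The log2 fold change was -3.90 (SE 0.09, 95% interval -4.11 to -3.68), a level 14.9-fold lower in aged mice, with an adjusted p of 1.72e-07 by edgeR's quasi-likelihood test with Benjamini-Hochberg adjustment over 14923 genes. This was the smallest p of any tested gene. By size of change Rps4l ranked 31st of all tested genes, and it ranked 1st among the 46 genes that fell past an adjusted p of 0.05 and averaged 5 CPM or more. Rps4l was still detected in every aged library, since 3 counts corresponded to at most 0.0720 CPM. The labels give 1 strain name for both ages but not the source or cohort of the mice, so for Rps4l age and any difference between cohorts cannot be told apart.

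The parent gene Rps4x, on chromosome X from 102184941 to 102189394, did not pass the test. Its level was 196, 160 and 197 CPM in the young libraries, against 167, 163 and 185 CPM in the aged ones. The age groups overlapped, with the lowest of the 6 values in young replicate 2. The log2 fold change was -0.10 (SE 0.10, 95% interval -0.32 to 0.12, adjusted p = 0.854 by edgeR), so the interval does not reach a fall as large as that of Rps4l. Only 27.8% of the 50-base stretches of Rps4x were its own, so its counts are less certain than those of Rps4l. Per kb of transcript, Rps4l stood at 78.7 ± 4.64 CPM in young and 5.28 ± 0.312 in aged epithelium, against 189 ± 21.7 and 176 ± 11.7 for Rps4x (SD, n = 3 each).

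The balance of the pair shifted with the level of Rps4l. The share of Rps4l in the summed CPM of Rps4l and Rps4x was 28.8, 31.0 and 26.6% in the young libraries, against 2.94, 3.10 and 2.46% in the aged ones. The mean share fell by 26.0 percentage points, from 28.8 ± 2.23% to 2.83 ± 0.334% (SD, n = 3). Of the 50-base stretches, 85.1% were found in no other gene for Rps4l but 27.8% for Rps4x. The size of the share at either age is therefore uncertain. An exact two-sided permutation test gave p = 0.1, the smallest p that 3 libraries against 3 allow, and 0.4 after Benjamini-Hochberg adjustment over the 4 pairs tested. The summed level of the pair was 275, 232 and 268 CPM in the young libraries, against 172, 169 and 189 CPM in the aged ones. The sums of the 2 ages did not overlap, and no aged library had a higher CPM of Rps4x than the highest young one.

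**Figure D1:**
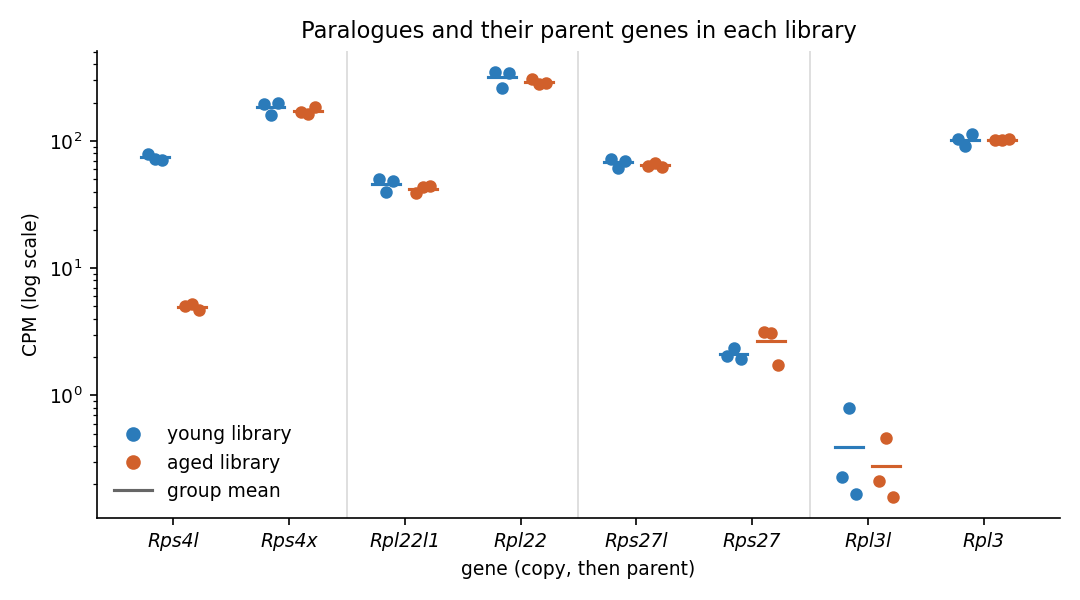
Level of each paralogue and its parent gene in every library, in CPM on a log axis, with young libraries in blue, aged libraries in orange and the group mean as a line. Rps4l is near 74.2 CPM in the young libraries and near 4.98 CPM in the aged ones, while the 2 ages overlap for the other 7 genes. Rpl39l, with 0 counts in all libraries, is not drawn.

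None of the genes around Rps4l was called. Of the 13 other genes tested within 1 Mb on either side, 0 passed the test in edgeR, DESeq2 or limma-voom, and 1, Mettl20, had an unadjusted p below 0.05 in edgeR (log2 fold change -0.29, adjusted p = 0.359). Their log2 fold changes ran from -0.55 to 0.18. The lowest was that of the host gene Tmtc1, an endoplasmic reticulum protein with tetratricopeptide repeats, which was barely expressed at 0.888 ± 0.334 CPM in young epithelium, against 0.611 ± 0.301 CPM in aged epithelium (adjusted p = 0.821 by edgeR). The fatty acyl-CoA reductase gene Far2 was at 264 ± 25.4 and 262 ± 36.5 CPM. The nuclear import receptor gene Ipo8 was at 99.2 ± 5.29 and 102 ± 2.64 CPM. In 3 of the 13 genes every aged value lay below every young one, as it did in 7.49% of all tested genes. These were Mettl20 (24.8 ± 1.57 and 20.3 ± 2.11 CPM), 3010003L21Rik (6.74 ± 0.653 and 5.44 ± 0.429 CPM) and Amn1 (4.74 ± 0.455 and 4.17 ± 0.179 CPM). The neighbours named were picked after their values were seen.

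**Figure D2:**
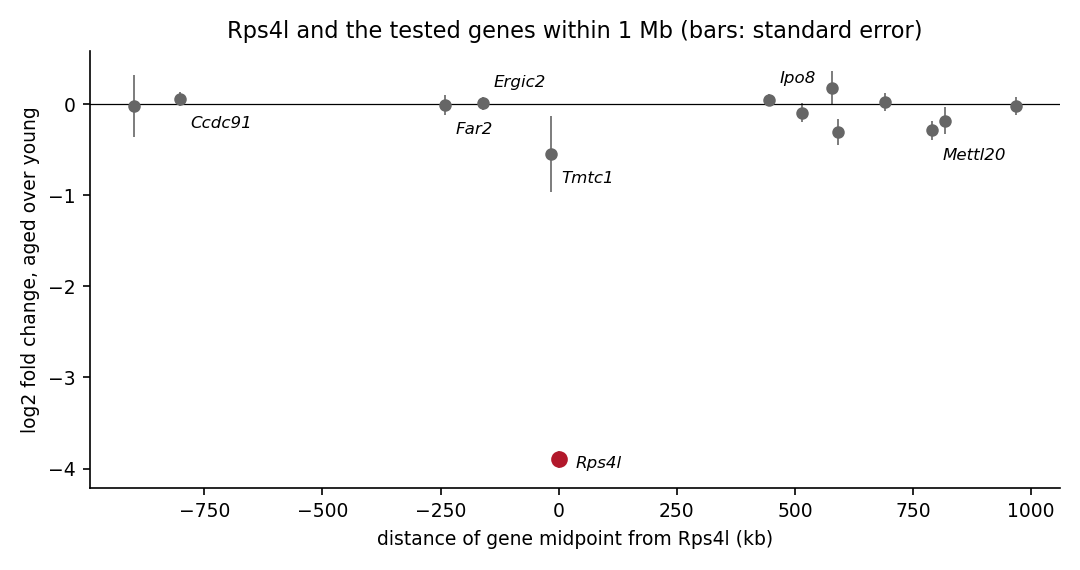
Log2 fold change, aged over young, of Rps4l (red) and the 13 other tested genes within 1 Mb (grey), against the distance of each gene's midpoint from Rps4l in kb, with bars for the standard error. Rps4l lies at -3.90 and its neighbours between -0.55 and 0.18.

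Of the other 4 named paralogues, 3 were tested and none passed, and Rpl39l was not detected. Rpl22l1 is the paralogue of the large subunit gene Rpl22, with the same base at 66.9% of coding positions. Rpl22l1 was at 49.98, 39.6 and 48.1 CPM in the young libraries, against 39.0, 43.1 and 43.9 CPM in the aged ones, with overlapping groups. The log2 fold change was -0.13 (SE 0.10, 95% interval -0.36 to 0.10, adjusted p = 0.824 by edgeR). Rpl22 itself was at 348, 258 and 339 CPM in the young libraries, against 308, 282 and 283 CPM in the aged ones (log2 fold change -0.11, adjusted p = 0.867 by edgeR). The share of Rpl22l1 in this pair was 12.8 ± 0.464% in young and 12.6 ± 1.22% in aged epithelium (SD, n = 3 each; exact permutation p = 0.9, adjusted 0.9). The balance of the pair thus moved by less than its spread. Of the 50-base stretches, 34.4% were found in no other gene for Rpl22l1 and 94.8% for Rpl22, so the size of this share is uncertain.

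Rps27l, a paralogue of the small subunit gene Rps27 and a known target of p53, was one of the copies with a high count. The first 120 coding bases of Rps27 and of 2 copies, Rps27l and Rps27rt, are printed because they differ sharply in how far reads can tell them apart. Capitals mark bases that differ from Rps27.
Rps27: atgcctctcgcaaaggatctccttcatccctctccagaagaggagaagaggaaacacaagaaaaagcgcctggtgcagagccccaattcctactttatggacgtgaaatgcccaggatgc
Rps27l: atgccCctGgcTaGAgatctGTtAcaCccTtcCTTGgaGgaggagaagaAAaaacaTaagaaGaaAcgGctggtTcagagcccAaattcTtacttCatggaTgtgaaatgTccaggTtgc
Rps27rt: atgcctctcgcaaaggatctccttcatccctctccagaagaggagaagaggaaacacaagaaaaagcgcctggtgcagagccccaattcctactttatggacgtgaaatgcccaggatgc
Rps27l differed from Rps27 at 28 of these 120 bases, and the retrotransposed copy Rps27rt at 0, the identity running over all 255 coding bases. Rps27l was at 72.0, 61.8 and 69.4 CPM in the young libraries, against 63.3, 67.4 and 61.9 CPM in the aged ones. The ages overlapped, and the log2 fold change was -0.08 (SE 0.08, 95% interval -0.26 to 0.11, adjusted p = 0.878 by edgeR). Rps27 was listed at 2.05, 2.37 and 1.94 CPM in the young libraries, against 3.17, 3.11 and 1.73 CPM in the aged ones (log2 fold change 0.33, adjusted p = 0.824 by edgeR). Only 1.35% of the 50-base stretches of Rps27 are found in no other gene, so its level cannot be read as the abundance of the mRNA. Rps27l made up 96.9 ± 0.546% of the pair's counts in young and 96.0 ± 1.10% in aged epithelium (SD, n = 3 each; exact permutation p = 0.4, adjusted 0.8), a share that rests on the low count of Rps27. Rps27rt was listed at 2.32, 1.03 and 1.54 CPM in the young libraries, against 1.73, 1.47 and 0.642 CPM in the aged ones (log2 fold change -0.35, adjusted p = 0.888 by edgeR). Only 8.92% of its 50-base stretches are found in no other gene, so its level is as uncertain as that of Rps27.

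Rpl3l, the striated muscle paralogue of Rpl3, was near the limit of detection with 10, 47 and 7 reads in the young libraries, against 10, 21 and 9 reads in the aged ones. Young replicate 2 held most of the young reads. The log2 fold change of -0.60 (95% interval -2.04 to 0.84, adjusted p = 0.879 by edgeR) became 0.45 without young replicate 2. Rpl3, which helps to form the peptidyl transferase centre, was at 103, 91.2 and 113 CPM in the young libraries, against 102, 101 and 104 CPM in the aged ones. Rpl3l made up 0.411 ± 0.394% of the pair in young and 0.271 ± 0.160% in aged epithelium (SD, n = 3 each; exact permutation p = 0.7, adjusted 0.9). Of the 50-base stretches, 100% were found in no other gene for Rpl3l but 14.4% for Rpl3, so the size of this share is uncertain. Rpl39l had 0 reads in all 6 libraries, which allows between 0.0507 and 0.0720 CPM depending on the library and covers counting error only. Its parent Rpl39, which lines the peptide exit tunnel, was at 54.1, 42.1 and 58.3 CPM in the young libraries, against 45.5, 46.8 and 48.8 CPM in the aged ones.

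Of the 90 genes, 85 passed the filter on low counts: all 76 core genes, 4 named paralogues and 5 other copies. With Rps4l, 1 of the 85 was called at an adjusted p below 0.05, against a background of 1.41% of all tested genes (210 of 14923), with 0.784% called lower and 0.623% called higher. Among the 76 core genes 0 were called by edgeR, 0 by DESeq2 and 0 by limma-voom, and 0 had an unadjusted p below 0.05, where 9.23% of all tested genes did. The smallest adjusted p of a core gene was 0.635 (edgeR). Their median log2 fold change was 0.01, as for all genes tested, and its sign depended on the scaling (-0.01 with upper quartile factors). There were 41 values above 0 and 35 below and a range from -0.32 to 0.39. The median size of the change was 0.08 over the core genes and 0.10 over all tested genes. The ages did not overlap for 1 core gene (1.32%), Rpl27a, whose aged values were the lower ones. Of all tested genes, 13.8% had ages that did not overlap, and 7.49% had all aged values lower.

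**Figure D3:**
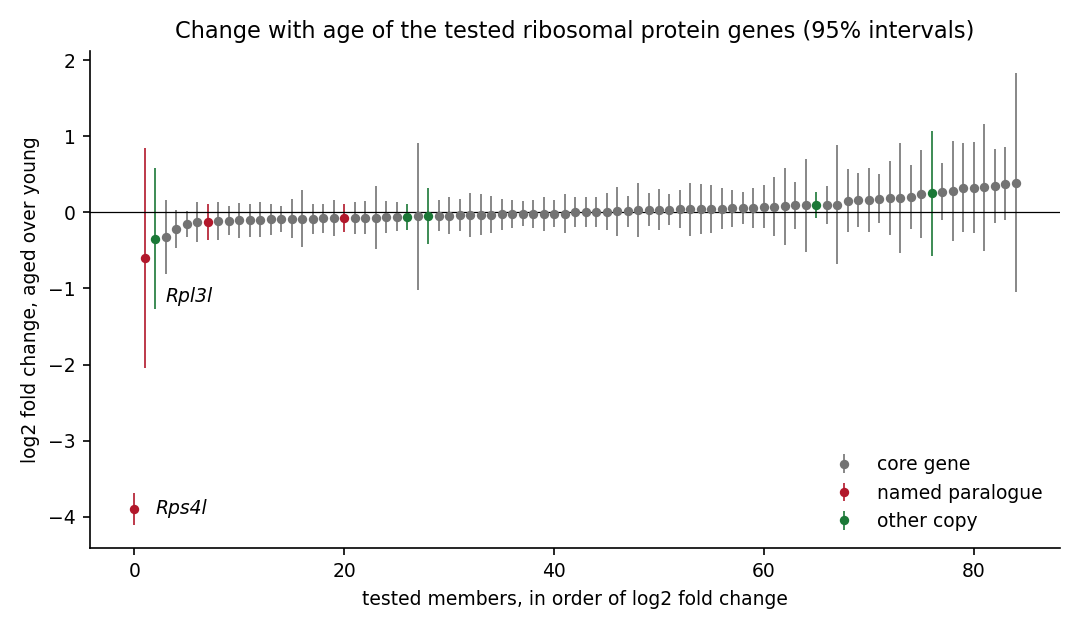
Log2 fold change, aged over young, of the 85 tested genes in ascending order, with 95% intervals: core genes in grey, named paralogues in red and other copies in green. Rps4l stands alone at -3.90, and the core genes lie between -0.32 and 0.39, with wide intervals for those of low count.

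Core genes of the small subunit, which surrounds the decoding site, centred on a log2 fold change of 0.00 (median of 30 genes, 15 above 0, 15 below, range -0.11 to 0.38). Rps3, at the channel where mRNA enters, was the most abundant. It was at 1744, 1439 and 1763 CPM in the young libraries, against 1617, 1544 and 1544.5 CPM in the aged ones, with overlapping groups (log2 fold change -0.07, adjusted p = 0.901 by edgeR). Rps19, the gene most often mutated in Diamond-Blackfan anaemia, was at 259, 204 and 320 CPM in the young libraries, against 338, 297 and 236 CPM in the aged ones (log2 fold change 0.15, adjusted p = 0.887 by edgeR). The highest fold changes of the small subunit were those of Rps6, the substrate of the S6 kinases, and of Rps16. Rps6 was listed at 3.64, 3.96 and 2.83 CPM in the young libraries, against 5.01, 5.20 and 3.40 CPM in the aged ones (log2 fold change 0.38, adjusted p = 0.701 by edgeR). Rps16 was at 2.09, 2.72 and 1.92 CPM in the young libraries, against 2.98, 3.27 and 2.37 CPM in the aged ones (log2 fold change 0.35, adjusted p = 0.752 by edgeR). Both had few reads, and their ages overlapped. Rps23, at the decoding centre, was among the least abundant at 0.668 ± 0.108 CPM in young epithelium, against 0.813 ± 0.193 CPM in aged epithelium (SD, n = 3 each; adjusted p = 0.875 by edgeR).

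The 43 core genes of the large subunit centred on a median log2 fold change of 0.00 (24 above 0, 19 below, range -0.32 to 0.39). Rpl4, a protein of the exit tunnel, was the most abundant of all core genes at 2207, 1881 and 2243 CPM in the young libraries, against 2017, 1882 and 2139 CPM in the aged ones. Its ages overlapped, and the log2 fold change was -0.07 (adjusted p = 0.908 by edgeR). Rpl8, next to the peptidyl transferase centre, was at 1634, 1394 and 1785 CPM in the young libraries, against 1808, 1661 and 1526 CPM in the aged ones (log2 fold change 0.05, adjusted p = 0.949 by edgeR). Rpl27a was at 61.0, 55.4 and 60.2 CPM in the young libraries, against 54.2, 54.5 and 50.3 CPM in the aged ones. All aged values were below all young ones, by a log2 fold change of -0.15 that did not pass the test (adjusted p = 0.635 by edgeR).

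Rpl5 and Rpl11 bind the 5S RNA and, when ribosome assembly stalls, the p53 regulator Mdm2. Rpl5 was at 23.9, 20.3 and 26.1 CPM in the young libraries, against 21.1, 19.2 and 20.1 CPM in the aged ones (log2 fold change -0.22, adjusted p = 0.636 by edgeR). Rpl11 was at 8.01, 10.2 and 9.43 CPM in the young libraries, against 11.8, 11.8 and 7.56 CPM in the aged ones (log2 fold change 0.17, adjusted p = 0.884 by edgeR). The fold changes of these partners had opposite signs, and neither passed the test. The lowest fold change of a core gene was that of Rpl19, at 2.64, 2.54 and 2.09 CPM in the young libraries, against 2.22, 2.06 and 1.55 CPM in the aged ones (log2 fold change -0.32, adjusted p = 0.783 by edgeR). The highest was that of Rpl24, which had between 4 and 26 reads per library and a 95% interval from -1.04 to 1.83 (adjusted p = 0.930 by edgeR). Rpl23a, a protein at the mouth of the exit tunnel, was also among the least abundant at 0.729 ± 0.292 CPM in young epithelium, against 0.797 ± 0.203 CPM in aged epithelium (SD, n = 3 each; adjusted p = 0.972 by edgeR).

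The stalk genes Rplp0, Rplp1 and Rplp2 were among the core genes with many reads. Rplp0, the base of the stalk, was at 1159 ± 154 CPM in young epithelium, against 1098 ± 55.2 CPM in aged epithelium (SD, n = 3 each; log2 fold change -0.08, adjusted p = 0.905 by edgeR). Rplp1 was at 1003 ± 143 and 1037 ± 115 CPM (log2 fold change 0.05). Rplp2 was at 388 ± 40.6 and 397 ± 30.1 CPM (log2 fold change 0.03). In all 3 genes the difference between ages was smaller than the SD of either group, except for Rplp0, where it exceeded the SD of the aged libraries.

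The core genes as a whole took shares of the counts that differed between ages by less than the SD of either group. Their share was 1.91, 1.61 and 2.03% in the young libraries, against 1.93, 1.81 and 1.77% in the aged ones, or 1.85 ± 0.216% against 1.83 ± 0.0818% (SD, n = 3). The lowest share was that of young replicate 2, and the ages overlapped. Small subunit genes made up between 41.2 and 42.3% of core counts in the 6 libraries, and the stalk genes between 13.5 and 14.0%. The 10 most abundant core genes held between 62.5 and 63.5%. The composition of the core set therefore varied less between libraries than its total. In bulk RNA, a smaller number of cells with a high content of these mRNAs and less of them per cell cannot be told apart.

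**Figure D4:**
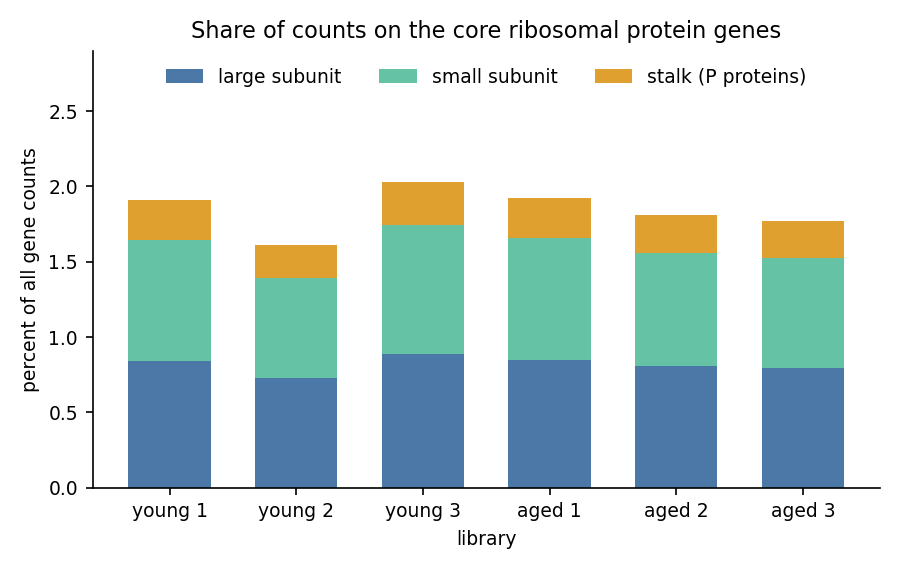
Percent of all gene counts that fell on the core genes in each library, stacked by large subunit (blue), small subunit (green) and stalk (yellow). The totals run from 1.61% in young replicate 2 to 2.03% in young replicate 3, with the aged libraries between them.

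The well-counted core genes tended to be high or low together in a library. Of the 44 core genes that averaged 50 CPM or more, the number above their own mean over all libraries was 40, 1 and 42 in the young libraries, against 32, 14 and 12 in the aged ones. The median deviation from that mean on the log2 scale was 0.07, -0.18 and 0.13 in the young libraries, against 0.06, -0.04 and -0.07 in the aged ones. Young replicate 2, which was also the most deeply sequenced library, was thus low across nearly the whole set, and the spread within the young group exceeded the difference between ages. Without young replicate 2 the median log2 fold change of the core genes was -0.08, and 0 core genes were called. Some core genes of lower count had another order. Rpl10, which joins the large subunit late in assembly, was at 14.6, 22.6 and 13.2 CPM in the young libraries, against 24.0, 24.9 and 14.5 CPM in the aged ones. Rpl9 was at 11.3, 18.5 and 11.3 CPM in the young libraries, against 18.6, 18.9 and 11.2 CPM in the aged ones. In both, young replicate 2 and aged replicates 1 and 2 were the high libraries. These examples were chosen after their values were seen.

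Levels listed for single core genes also followed how much of their sequence is their own. The 20 core genes with under 25% of 50-base stretches found in no other annotated gene had a median of 13.1 CPM. The medians were 93.8 CPM for the 16 genes from 25 to 50%, 135 CPM for the 28 from 50 to 75%, and 403 CPM for the 12 above 75%. Across the 76 genes, Spearman's rho between the mean CPM per kb and the share of such stretches was 0.44, and 0.58 with 100-base stretches. Genes are not independent replicates, and they share libraries, so this is a description. For example, Rps6 (15.4%) and Rps27 (1.35%) were listed at a few CPM. Rps3 (97.0%) was listed at 1648 ± 182 CPM in young epithelium, against 1568 ± 41.7 CPM in aged epithelium (SD, n = 3 each). Other genes lay off this trend. Rpl38 (72.6%) and Rps29 (64.2%) averaged 1.34 and 0.853 CPM over the 6 libraries, while Rps18 (13.3%) and Rpl30 (17.7%) averaged 133 and 109 CPM. All these examples were chosen after their values were seen. The level of a core gene with shared sequence is uncertain, as is its rank among the others. Whether shared sequence lowered the listed levels was not tested. The 12 core genes under 5 CPM had a median log2 fold change of 0.19 and the 44 genes of at least 50 CPM one of -0.02, with 0 genes called in either set.

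**Figure D5:**
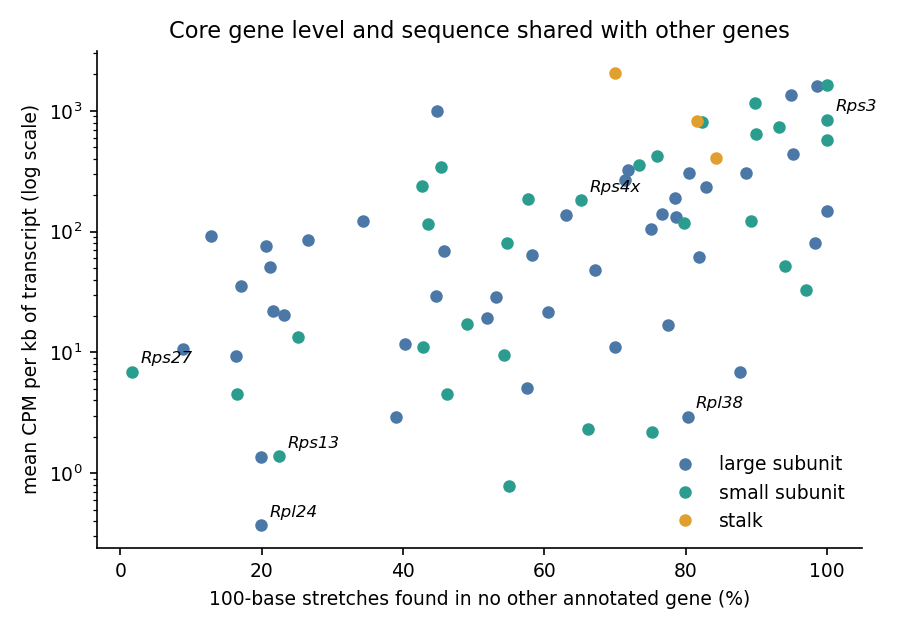
Mean level of each of the 76 core genes over all libraries, in CPM per kb of transcript on a log axis, against the percent of its 100-base stretches that occur in no other annotated gene. Rps27, with little sequence of its own, lies low, and Rps3 lies at the upper right. Other genes lie off this trend, such as Rpl38 (80.3%), which lies low, and Rpl10a (12.9%), which does not. Spearman's rho is 0.58.

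Of the 9 other copies, 5 passed the filter and none was called (edgeR, DESeq2 and limma-voom each called 0, with 0 at an unadjusted p below 0.05). GENCODE M21 lists Rps12l1, Rps12l2, Rps3a2 and Rps3a3 as processed pseudogenes and Rpl37rt as a transcribed processed pseudogene. Rpl7l1 encodes a protein related to Rpl7 that takes part in ribosome assembly. It had the same base as Rpl7 at 52.3% of aligned positions, gaps included. Its level was 112, 126 and 110 CPM in the young libraries, against 119, 129 and 125 CPM in the aged ones (log2 fold change 0.10, adjusted p = 0.824 by edgeR). Rpl36al shared 87.9% of the coding bases of Rpl36a. Rpl36al was at 30.7, 31.8 and 30.9 CPM in the young libraries, against 30.8, 29.6 and 29.6 CPM in the aged ones (log2 fold change -0.05, adjusted p = 0.908 by edgeR). It was listed above its parent Rpl36a, which was between 4.09 and 5.09 CPM in the 6 libraries. Rpl37rt, which differs from Rpl37 at 1 of 294 coding bases, was at 7.37 ± 1.06 CPM in young epithelium, against 7.10 ± 1.03 CPM in aged epithelium (SD, n = 3 each). Rps3a3, which shares 98.9% with Rps3a1, was at 0.211 ± 0.0373 and 0.252 ± 0.0468 CPM. Rpl10l and Rps12l1 had 0 reads in all libraries, Rps12l2 between 0 and 6 and Rps3a2 between 0 and 3. Rps12l1 is identical to Rps12 over the 399 coding bases of Rps12, so reads of one cannot be told from reads of the other.

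Genes named as ribosomal protein pseudogenes (-ps) held few counts. Of 251 such genes 186 had at least 1 read, 40 were tested and 0 were called (also 0 by DESeq2 and by limma-voom, with 0 at an unadjusted p below 0.05). Their summed level was 113, 88.0 and 111 CPM in the young libraries, against 107, 94.6 and 90.7 CPM in the aged ones, and young replicate 2 was again the lowest. The largest was Rpl14-ps1 at 44.0 CPM in young epithelium, against 40.9 CPM in aged epithelium (mean of 3 libraries each, adjusted p = 0.843 by edgeR). The log2 fold changes of these 40 genes ran from -0.50 to 0.96, and the smallest adjusted p was 0.550 (edgeR). Many pseudogenes that share 50-base stretches with core genes carry symbols beginning with Gm instead, and their counts were not summed.

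The 4 ribosomal protein genes that the symbol rule misses were not called either (0 by edgeR, DESeq2 and limma-voom, 0 at an unadjusted p below 0.05). Gnb2l1 (Rack1), a scaffold on the small subunit, was at 2162 ± 246 CPM in young epithelium, against 2051 ± 87.0 CPM in aged epithelium (SD, n = 3 each; log2 fold change -0.08, adjusted p = 0.898 by edgeR). Rpsa was at 22.1 ± 2.47 and 21.8 ± 2.07 CPM. Fau, whose ribosomal protein is made fused to a ubiquitin-like protein, was at 3.64 ± 0.564 and 4.26 ± 0.835 CPM.

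Translation factors and other genes listed for sharing the terminal oligopyrimidine tract also showed no called gene. Of these 18, 0 were called by edgeR, DESeq2 or limma-voom and 0 had an unadjusted p below 0.05 (median log2 fold change -0.03). Eef2, the translocation factor, was at 4701 ± 510 CPM in young epithelium, against 4563 ± 248 CPM in aged epithelium (adjusted p = 0.960 by edgeR). Eef1a1, which delivers aminoacyl-tRNA, was at 2666 ± 225 and 2447 ± 289 CPM (adjusted p = 0.833 by edgeR). Of 31 initiation factors, 0 were called by edgeR, DESeq2 or limma-voom and 1, Eif5a, had an unadjusted p below 0.05 (log2 fold change 0.18, adjusted p = 0.446 by edgeR).

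Most genes that build ribosomes had a fold change slightly above 0, without a called gene. Of 58 ribosome assembly genes, 52 had a log2 fold change above 0 with a median of 0.08, against 7735 of 14923 above 0 and a median of 0.01 over all tested genes. None was called by edgeR, DESeq2 or limma-voom, and 2, Ftsj3 and Nhp2, had an unadjusted p below 0.05 (adjusted p = 0.501 and 0.517 by edgeR). Over the 14 alternatives, between 42 and 56 of these genes lay above 0 and the median was between 0.04 and 0.11. The nucleolar proteins Ncl and Ddx21 were at 1027 ± 33.1 and 271 ± 27.7 CPM in young and 1066 ± 80.9 and 306 ± 20.5 CPM in aged epithelium. Of 15 RNA polymerase I genes, which make ribosomal RNA, 13 lay above 0 with a median of 0.05 and 0 were called by edgeR, DESeq2 or limma-voom (0 at an unadjusted p below 0.05). Without aged replicate 2 the median was 0.01. Tcof1, a cofactor of that polymerase, was at 152 ± 19.1 and 179 ± 20.5 CPM (adjusted p = 0.587 by edgeR). Of 10 snoRNA host genes 0 were called by the same 3 tools (0 at an unadjusted p below 0.05), Gas5 being at 215 ± 14.0 and 213 ± 16.5 CPM (SD, n = 3 each).

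In the list of mTOR, Myc and S6 kinase genes, which regulate ribosome synthesis, 0 of 22 were called by edgeR and limma-voom and 1, Mycn, by DESeq2. Mycn was at 9.74 CPM in young epithelium, against 6.27 CPM in aged epithelium (log2 fold change -0.63, SE 0.17, adjusted p = 0.142 by edgeR). Max and Rps6ka4 also had unadjusted p-values below 0.05, with log2 fold changes of 0.18 and 0.24. The p53 list, chosen for the link of Rpl5 and Rpl11 to p53, held 16 genes: Trp53 itself and targets of p53. Of these, 0 were called by edgeR, DESeq2 or limma-voom. An unadjusted p below 0.05 (edgeR) was found for 5 of the 16, against 9.23% of all tested genes. Phlda3, Ccng1, Plk2 and Trp53inp1 were lower in aged libraries on average and Plk3 higher, with adjusted p-values between 0.214 and 0.447 (edgeR). The mitochondrial ribosome is a separate particle made from nuclear genes. Of its 77 tested genes 59 lay above 0 with a median log2 fold change of 0.05 and 0 were called by the same 3 tools. Without aged replicate 2, 42 lay above 0 with a median of 0.01. In the full fit Mrps5 and Mrpl20 had an unadjusted p below 0.05.

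Libraries held between 41479573 and 58989166 counts. Mitochondrially encoded genes took 3.69, 2.07 and 1.48% of them in the young libraries, against 2.88, 2.04 and 1.54% in the aged ones. This share thus fell in record order at both ages. Summed Paneth and goblet cell markers were lower in every aged library than in every young one, as Rps4l was. The 7 Paneth cell markers summed to between 8577 and 15846 CPM in young and between 6416 and 6933 CPM in aged libraries, with 1 of 7 called (Defa17, lower; edgeR, against 1.41% of all tested genes). DESeq2 called 4 of these 7 and limma-voom 1. Over all 14923 tested genes DESeq2 called 206 higher and 276 lower, and limma-voom called 78 higher and 101 lower. These counts, and the 1.41% of edgeR, are also the background for the marker lists that follow. The 7 goblet cell markers summed to between 17721 and 26970 CPM in young and between 14987 and 16620 CPM in aged libraries, with 1 of 7 called by edgeR (Tff3, lower, adjusted p = 0.0498), 2 by DESeq2 and 0 by limma-voom. Of 7 enteroendocrine markers, 1 was called by edgeR (Gip, lower), 2 by DESeq2 and 1 by limma-voom. Their log2 fold changes were above 0 for 3 and below 0 for 4. Their sums overlapped between ages, at 2133 to 2802 CPM in young and 2459 to 2727 CPM in aged libraries. None of these markers was at 0 in all libraries, and their part in the level of Rps4l was not tested. Crypt markers (6009 to 7074 CPM in young, 5935 to 6782 CPM in aged libraries) and enterocyte markers (3340 to 4972 and 2312 to 3746 CPM) overlapped between ages, with 0 of either called by edgeR or limma-voom and 1 enterocyte marker by DESeq2. The 12 leukocyte markers summed to between 3.96 and 5.28 CPM in young and between 4.04 and 4.39 CPM in aged libraries. The 10 stromal and endothelial markers summed to between 1.08 and 2.09 and between 1.40 and 1.86 CPM, with Cdh5 at 0 in every library, and these sums were low at both ages. The 7 tuft cell markers (59.3 to 62.9 and 41.8 to 64.7 CPM) and 5 erythroid markers (0.0845 to 2.23 and 0.0219 to 0.303 CPM) overlapped between ages.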

How the data were processed

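The authors deposited raw counts per gene, not normalised, for 46078 genes in 6 libraries. Per the labels' protocols, poly(A) RNA was made into stranded libraries. The submitters' processing notes name GRCm38 and, among other tools and without roles, the aligners STAR and HISAT2 2.1.0, the counter featureCounts 1.6.4, and for trimming Trim Galore 0.6.4. The sources used here do not say which annotation release or strand setting the counting used, or how reads with several matches were handled. Counts of genes with near-identical copies, or that overlap others, are therefore uncertain.

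Genes were filtered with filterByExpr (minimum count 10), which kept 14923, and scaled with TMM factors. They were tested with edgeR 4.0.16 (quasi-likelihood, robust; R 4.3.3) with age as the only term. The threshold was a Benjamini-Hochberg adjusted p of 0.05 over all tested genes. The test was checked on simulated data. Alternatives were DESeq2 1.42.0, limma-voom (limma 3.58.1), other scalings and filters, and leaving out each library. Shares within a pair were compared by exact two-sided permutation. A gene at 0 could lie at up to 3 counts; this limit, and the 95% intervals, which come from the fit, treat reads without molecular identifiers as counted. Annotation and sequences came from GENCODE M21 (GRCm38, 1-based), where all 90 genes were found. Stretches of 50 and 100 bases were taken from all principal protein-coding transcripts of a gene, or from all its transcripts where it had none. They were counted as a gene's own when absent from the transcripts of every other gene.

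Replicates were numbered in record order. Libraries of an age differed by more than sampling noise (chi-square per gene of at least 27.2). Genes were named by rule: the paralogues and their parents, the other copies, the 3 highest, lowest, most and least abundant core genes, and up to 4 called or the 2 most abundant genes of other lists. Rps19, Rpl9, Rpl10, Rpl11, the stalk genes and genes named for an unadjusted p were added after their values were seen. The members and lists were chosen with earlier results of these data known. Values of some genes are not reported here.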

Additional observations from a re-analysis of the deposited data

How the results depend on the processing

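Rps4l was called lower under all 14 alternatives, with log2 fold changes from -3.94 to -3.85 and adjusted p from 2.28e-268 (DESeq2) to 2.39e-05 (without aged replicate 1). The core genes called numbered 0 in every alternative, and their median log2 fold change ran from -0.08 to 0.06. Over all genes, 93 were called higher and 117 lower. DESeq2 called 206 and 276, testing without a filter 168 and 245, and the filter of 1 CPM in 3 libraries 67 lower. Leaving out 1 library gave between 35 and 135 higher and between 30 and 135 lower. Values that changed sign were all far from the threshold. Rpl3l ran from -1.16 to 0.45 with 1 library left out, the positive value being that without young replicate 2, and it could not be tested under the filter of 1 CPM. Rpl3, at 0.0037, became -0.0128 with upper quartile scaling, -0.0022 with TMM factors made without ribosomal protein genes and -0.0048 with the filter of 1 CPM. With 1 library left out it ran from -0.0798 to 0.0809, below 0 without young replicate 2 or aged replicate 3. In the same way Rpl23a ran from -0.0840 to 0.493, below 0 without young replicate 1 or 3 or aged replicate 1. Rpl8 ran from -0.0451 to 0.136, below 0 without young replicate 2 or aged replicate 1. The cause was not tested. The young-to-aged difference in the core share of counts, -0.0158 percentage points, was -0.0209 of nuclear counts and between -0.135 and 0.0748 with 1 library left out. No paired analysis was made because the labels give no replicate numbers or shared litters. A pairing by record order was not tested. Few reads were counted for Rpl3l, Rpl24, Rps23, Rpl23a and the copies with under 1 CPM, which limits their comparison. The part of depth and of shared sequence in these low counts was not tested.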
